A study of Cenococcum geophilum 1.58 with 6 samples.

Results

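In the processed RNA-Seq data of Cenococcum geophilum 1.58, an ectomycorrhizal ascomycete, 84 of 14748 genes formed a set of abundant transcripts with a narrow range of TPM (counts divided by gene length and scaled to 1000000 transcripts per library). They were selected on the measured TPM themselves. A gene had to reach 400 TPM in each of 6 libraries, its highest TPM could be at most 2 times its lowest, and it could not be in the list of secreted proteins regulated in ECM. That last condition removed 0 genes. The low ratio in TPM is therefore how the genes were chosen, and their levels and differences are given as a description, with no test. The label under which the set was proposed, stable between mycelium and ectomycorrhiza, held for all 84 genes in deposited TPM only. With TMM normalization 16 of the 84 still met the rule, and the counts on the other scales, given below, lay in between, so the genes are called here the 84 TPM-selected genes.

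The libraries came from free-living mycelium (FLM), a pure culture of the fungus without a host, and from ectomycorrhizal (ECM) root tips formed with the hybrid poplar Populus tremula x alba (INRA clone 717-1B4). Both were grown in vitro in the same conditions on a medium low in phosphorus and nitrogen and both were sampled at 60 days, with 3 biological replicates each and 1 fungal isolate in all. A root tip holds plant and fungal RNA, and the counts are of fungal genes only. Total counts ran from 52305281 to 54586073 in FLM and from 11197509 to 14396613 in poplar ECM. An older sequencer model served for all 3 FLM libraries and for replicate 1 of poplar ECM, and a newer model for the other 2 libraries.

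In an ectomycorrhiza the fungus wraps the root tip in a mantle of hyphae and grows between the outer root cells, where it trades soil nutrients for plant sugars. Fungal cells in either state have to make proteins, fold them and respire, and genes for these tasks are commonly among the most abundant transcripts of a fungus. Genes of even level are sought as internal references, since RNA-Seq reports the share of each transcript in a library and not its amount per cell. A share can stay the same while the amount changes, and the other way round. In bulk RNA, fewer cells of a kind and less RNA per cell cannot be told apart.

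The annotation at hand pairs the IDs with positions but with no product names, so no function is given for any of the 84 genes. None of them belongs to the 22 core eukaryotic genes for which the study lists a product.

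**Figure D1:**
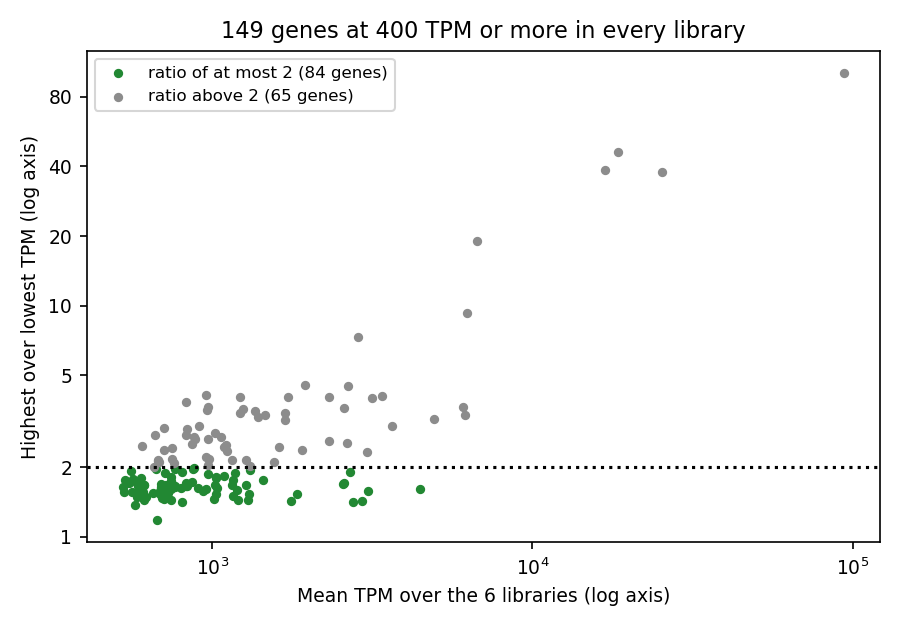
Mean TPM over the 6 libraries (x axis, log scale) against the ratio of highest to lowest TPM (y axis, log scale) of the 149 genes at 400 TPM or more in every library. The 84 TPM-selected genes (green) lie at or under the dotted line at a ratio of 2, and the 65 others (grey) reach a ratio of 101.

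Of the 149 genes at or above 400 TPM in every library, 84 had a ratio of at most 2 and 65 a larger one. The 84 made up 0.57% of all genes. Their mean TPM ran from 525 to 4457, with a median of 766. A mean above 1000 TPM was found for 27 of them and one above 2000 TPM for 7. Their ratio ran from 1.18 to 1.99 with a median of 1.65, so that most of them used much of the range allowed.

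The highest mean belonged to Cenge3:535940, at 5219, 4139 and 5195 TPM in FLM replicates 1, 2 and 3 and at 3255, 4971 and 3963 in poplar ECM. Its means were 4851 ± 617 in FLM and 4063 ± 863 in poplar ECM (SD, n = 3). The groups overlapped, since poplar ECM replicate 2 lay above FLM replicate 2. Cenge3:660160 followed with 3225, 2698 and 2555 TPM in FLM and 3247, 4033 and 2667 in poplar ECM. Here poplar ECM replicate 2 was the highest library, and poplar ECM replicate 3 lay inside the FLM range. Cenge3:534828 had almost the same level in the FLM libraries, at 3196, 3162 and 3135 TPM, and more spread in poplar ECM, at 2226, 3170 and 2697. Its SD was 30.4 TPM in FLM and 472 in poplar ECM.

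For Cenge3:660991 the values were 3021, 2685 and 2649 TPM in FLM and 2253, 2681 and 3180 in poplar ECM. Its lowest and its highest library were both poplar ECM libraries. Cenge3:480121 came close to the limit, with a ratio of 1.91, from 2690, 2415 and 1916 TPM in FLM to 3202, 3666 and 2321 in poplar ECM.

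**Figure D2:**
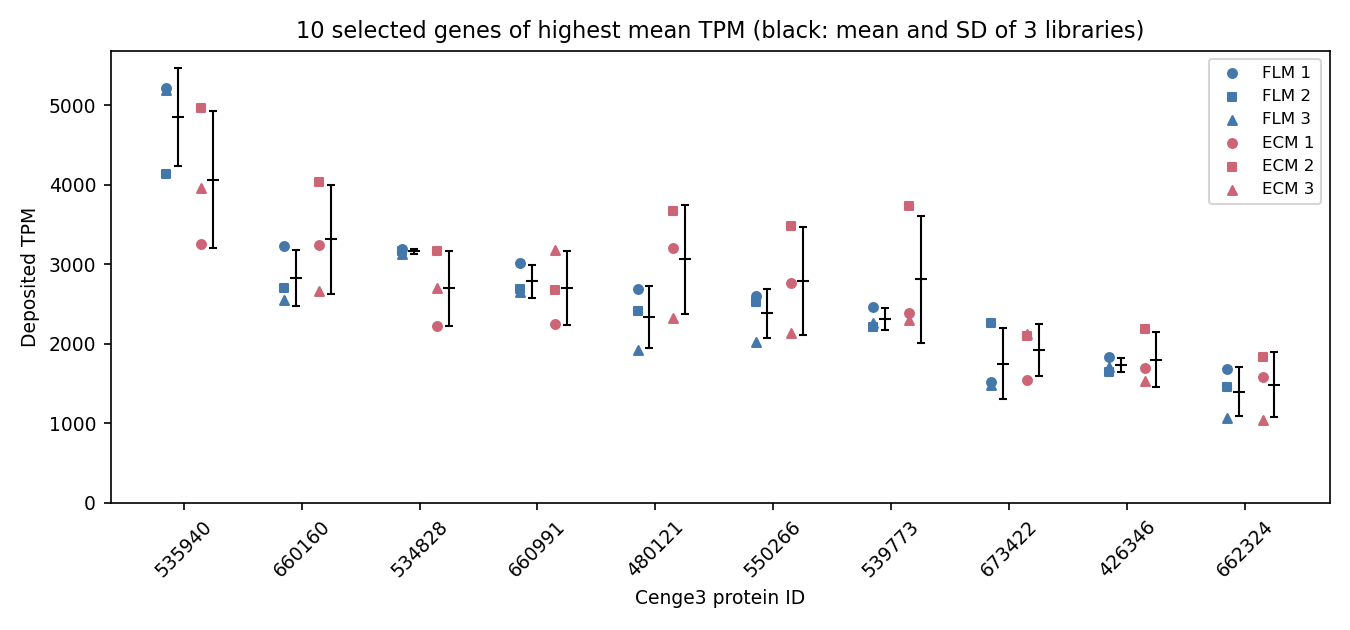
Deposited TPM (y axis, from 0) of the 10 TPM-selected genes with the highest mean (x axis, Cenge3 protein IDs), with FLM in blue, poplar ECM in red and a marker shape per replicate. Black bars show the mean and SD of 3 libraries; Cenge3:535940 has the highest means, 4851 in FLM and 4063 in poplar ECM.

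The smallest ratio was that of Cenge3:705646, at 701, 631 and 743 TPM in FLM and 629, 702 and 632 in poplar ECM. All 6 values fell within a ratio of 1.18, and the groups overlapped. The next was Cenge3:571428, with a ratio of 1.38 from 685, 515 and 612 TPM in FLM and 498, 598 and 528 in poplar ECM. Cenge3:690121 had 847, 708 and 787 TPM in FLM and 881, 943 and 668 in poplar ECM. Cenge3:426346 had 1829, 1649 and 1712 TPM in FLM and 1689, 2185 and 1529 in poplar ECM. Both had their highest and their lowest library within poplar ECM, with ratios of 1.41 and 1.43. Cenge3:660991, described above, also belonged to the 5 genes of lowest ratio.

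The limits cut through a continuous range. Just inside the ratio of 2 lay Cenge3:653203 (ratio 1.99), Cenge3:671313 (1.97) and Cenge3:666598 (1.97), and just outside lay Cenge3:683664 (2.01), Cenge3:567174 (2.02) and Cenge3:574880 (2.04). At the limit of 400 TPM, the lowest libraries of Cenge3:551224, Cenge3:667496 and Cenge3:565789 were at 401, 405 and 406 TPM. Those of Cenge3:590439, Cenge3:588965 and Cenge3:558995, left out, were at 399, 398 and 388. The values on both sides of a limit thus differed by less than the replicates of a single gene did.

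Within FLM the replicates of the 84 genes lay close together, with a median coefficient of variation in TPM of 7.12%, against 23.0% within poplar ECM. Over the 12692 genes tested (10 counts or more in 3 libraries or more), these medians were 11.5% and 35.1%. The smaller spread of the 84 genes in TPM follows from the limit on their ratio. On the TMM scale, described below, the medians were 6.73% in FLM and 34.2% in poplar ECM for the 84 genes. They were 11.2% and 20.2% for all genes tested. Within poplar ECM the 84 genes then spread more than the typical gene. That scale multiplies each poplar ECM library by a different constant, and genes chosen for near-even TPM take on the difference. Nothing is read from this spread about the genes. The highest of the 6 libraries was poplar ECM replicate 2 for 43 of the genes, FLM replicate 1 for 14, poplar ECM replicate 3 for 11, FLM replicate 3 for 10 and FLM replicate 2 for 6. Poplar ECM replicate 1 was highest for 0 of them and lowest for 40, and poplar ECM replicate 3 was lowest for 30. The spread of the set was thus set mainly by the poplar ECM libraries.

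In TPM the 84 genes showed no common direction. The log2 difference between the group means, poplar ECM minus FLM, had a median of -0.04 and ran from -0.54 to 0.52. It was above 0 for 40 genes and below 0 for 44. The groups did not overlap for 12 genes, with 4 higher in poplar ECM and 8 lower. Over all genes tested, 5.73% were higher in poplar ECM without overlap and 58.6% were lower, and since the rule used this contrast nothing is read from the difference in these shares. The median log2 difference in TPM over all genes tested was -0.76. A typical gene thus had less TPM in poplar ECM, and the 84 genes, chosen to keep theirs, did not follow it.

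The TPM of the libraries differed in composition. Cenge3:599435, with a length of 199 bp in the deposited values, had 10361, 14821 and 2705 TPM in FLM and 274421, 171640 and 88563 in poplar ECM. It alone took from 0.27% to 1.48% of the TPM in FLM and 27.4%, 17.2% and 8.86% in poplar ECM replicates 1, 2 and 3. In counts, where a short gene weighs less, its share was between 0.04% and 0.21% in FLM and 6.14%, 3.50% and 1.39% in poplar ECM. The next genes by ratio were Cenge3:671410, at 747, 20473 and 6454 TPM in FLM and 34450, 32732 and 16275 in poplar ECM, and Cenge3:93593, at 3394, 4447 and 1145 in FLM and 44066, 26249 and 21619 in poplar ECM. Together the 5 abundant genes of largest ratio took from 1.30% to 4.78% of the TPM in FLM libraries, and from 17.4% to 42.8% in those of poplar ECM.

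**Figure D3:**
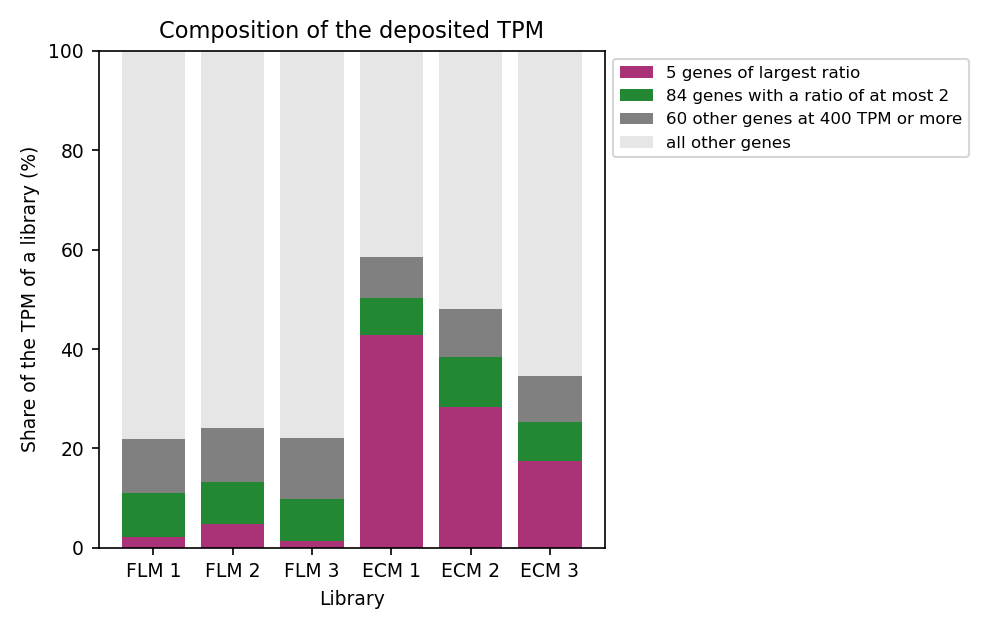
Share of the deposited TPM (y axis, %) in each library (x axis) taken by the 5 abundant genes of largest ratio, the 84 TPM-selected genes, the 60 other genes at 400 TPM or more in every library, and all other genes. The 5 genes take 42.8% in poplar ECM replicate 1 and at most 4.78% in FLM, and the 84 genes take between 7.52% and 10.1% in every library.

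The 84 genes together held 8.93%, 8.40% and 8.50% of the TPM in FLM and 7.52%, 10.1% and 7.93% in poplar ECM. Of the TPM that remained without the 5 genes, they held between 8.61% and 9.12% in FLM and 13.1%, 14.1% and 9.59% in poplar ECM. The values of every poplar ECM library then lay above those of FLM, with replicate 3 the nearest to FLM. In counts the shares were between 4.44% and 4.74% in FLM and 6.35%, 7.69% and 4.95% in poplar ECM. The median TPM of all genes was between 24.4 and 25.3 in FLM and lower, at 11.6, 12.6 and 20.7, in poplar ECM. Against that median, the median of the 84 genes was between 32.3 and 33.1 times as high in FLM, and 57.4, 69.9 and 36.1 times as high in poplar ECM. These multiples, and the shares without the 5 genes, largely follow from the rule, which kept genes of near-even TPM. Nothing is read from them about the set.

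The counts were also compared after TMM normalization, which sets the libraries on a common scale through the bulk of the genes and trims away the most abundant and most changed ones. Going from TPM to this scale multiplies each library by 1 constant for every gene. The constants were 0.735, 0.765 and 0.761 for FLM and 1.70, 1.43 and 0.957 for poplar ECM, a mean shift of 0.82 in log2. On this scale the median log2 difference of all genes tested was 0.01. That of the 84 genes was 0.78, from 0.30 to 1.39, and all 84 lay above 0, 73 of them by more than 0.5. The median of the 65 other abundant genes was 0.11, from -1.92 to 5.25, with 42 above 0 and 23 below. The 84 were kept for near-even TPM and largely take on the shift of 0.82, while the 65 failed the ratio. Nothing is therefore read from this contrast about the set.

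**Figure D4:**
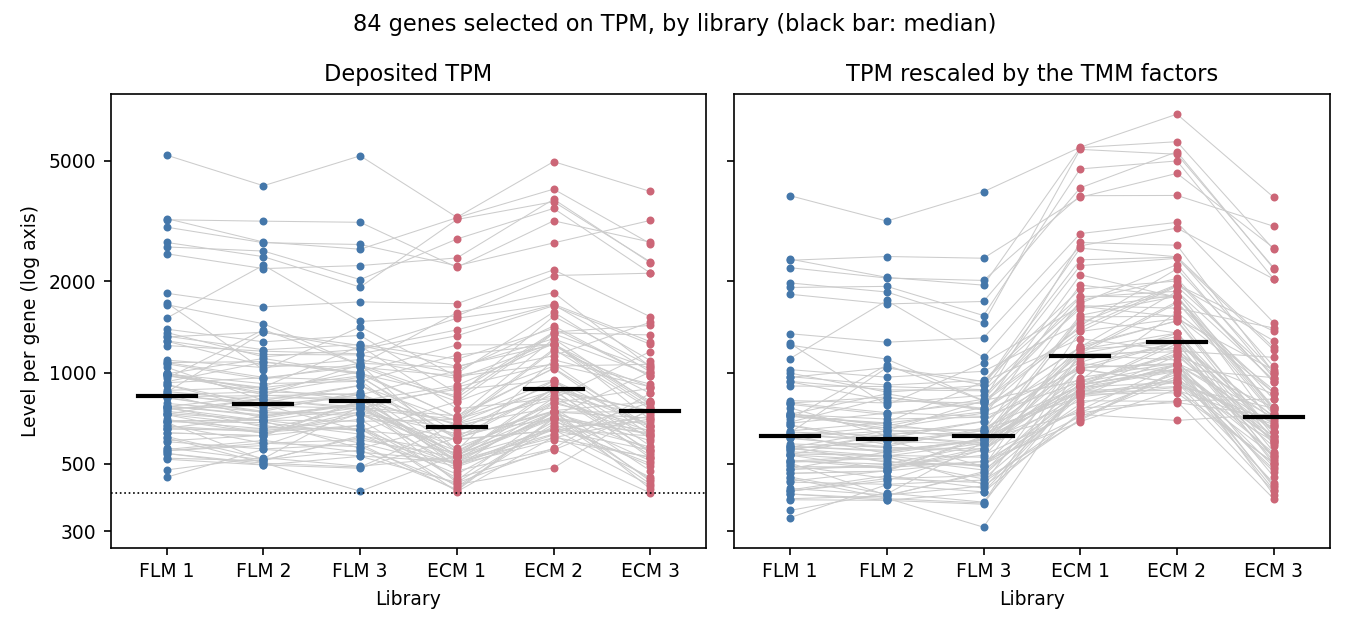
Level of each of the 84 TPM-selected genes (points joined by grey lines, y axis, log scale) in the 6 libraries (x axis), as deposited TPM on the left and after rescaling by the TMM factors on the right; black bars are medians and the dotted line is at 400 TPM. The medians lie between 664 and 881 in TPM, while on the TMM scale they lie between 603 and 616 in FLM and at 1132, 1264 and 713 in poplar ECM replicates 1, 2 and 3.

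The libraries did not share this shift evenly. On the TMM scale poplar ECM replicates 1 and 2 lay above every FLM library for all 84 genes. Replicate 3 did so for 54 genes and lay at or below the highest FLM library for the other 30. Against the FLM mean, the median log2 difference of the 84 genes was 0.87 in replicate 1, 1.11 in replicate 2 and 0.16 in replicate 3. In TPM these medians were -0.30, 0.18 and -0.18. The step from these to the TMM values came from the library constants given above, smallest in replicate 3 among the poplar ECM libraries. Replicate 1 was the 1 poplar ECM library from the sequencer model of the FLM libraries, and replicates 2 and 3 came from the newer model. Replicate 3 was also the library in which the 5 genes took the smallest share of the poplar ECM TPM, and the part of this share in the result was not tested.

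With the limits of the study (log2 fold change above 1 in size, adjusted p under 0.05 in edgeR's quasi-likelihood test over all genes), 20 of the 84 genes were above the limits in poplar ECM and 0 below. Of all genes tested, 9.94% were up-regulated and 3.28% down-regulated in this sense. With no minimum fold, 47 of the 84 were past the adjusted p and higher, against 16.0% of all genes. On the TMM scale 54 of the 84 were higher in poplar ECM without overlap, against 22.2% of all genes. The rule used the same libraries and the same contrast, and nothing is read from these counts about the genes as a set. The count of 20 depended on the scaling and on single libraries. It was 1 with library totals. It was 39 without poplar ECM replicate 3, 3 without replicate 2 and 5 without replicate 1, and it was 7, 11 and 7 without FLM replicates 1, 2 and 3. The median log2 difference of the 84 genes lay between 0.62 and 0.93 over the fits with a library left out. It was 0.41 with library totals. With the sequencer as a term it was 0.87, but the newer model served no FLM library. That fit therefore sets poplar ECM replicate 1 alone against FLM, and no count is given for it.

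The genes of largest difference on the TMM scale were Cenge3:657832 (1.39), Cenge3:539094 (1.35) and Cenge3:534689 (1.35). In TPM, Cenge3:534689 had 695, 696 and 642 in FLM and 803, 1051 and 1066 in poplar ECM, so that its groups were apart on that scale too. Cenge3:539094 had 541, 503 and 488 TPM in FLM and 677, 817 and 641 in poplar ECM, and Cenge3:657832 had 764, 776 and 845 in FLM and 1015, 1427 and 972 in poplar ECM. All 3 were higher in every poplar ECM library than in any FLM library.

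The smallest differences on the TMM scale were those of Cenge3:582937 (0.30), Cenge3:666386 (0.38) and Cenge3:663790 (0.38). Cenge3:582937 had 975, 893 and 976 TPM in FLM and 601, 645 and 717 in poplar ECM. It had the most negative difference in TPM, with means of 948 ± 47.7 in FLM and 654 ± 58.7 in poplar ECM (SD, n = 3). On the TMM scale its poplar ECM mean was the higher one. Cenge3:705646, the gene of lowest ratio in TPM, differed by 0.78 in log2 on the TMM scale.

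**Figure D5:**
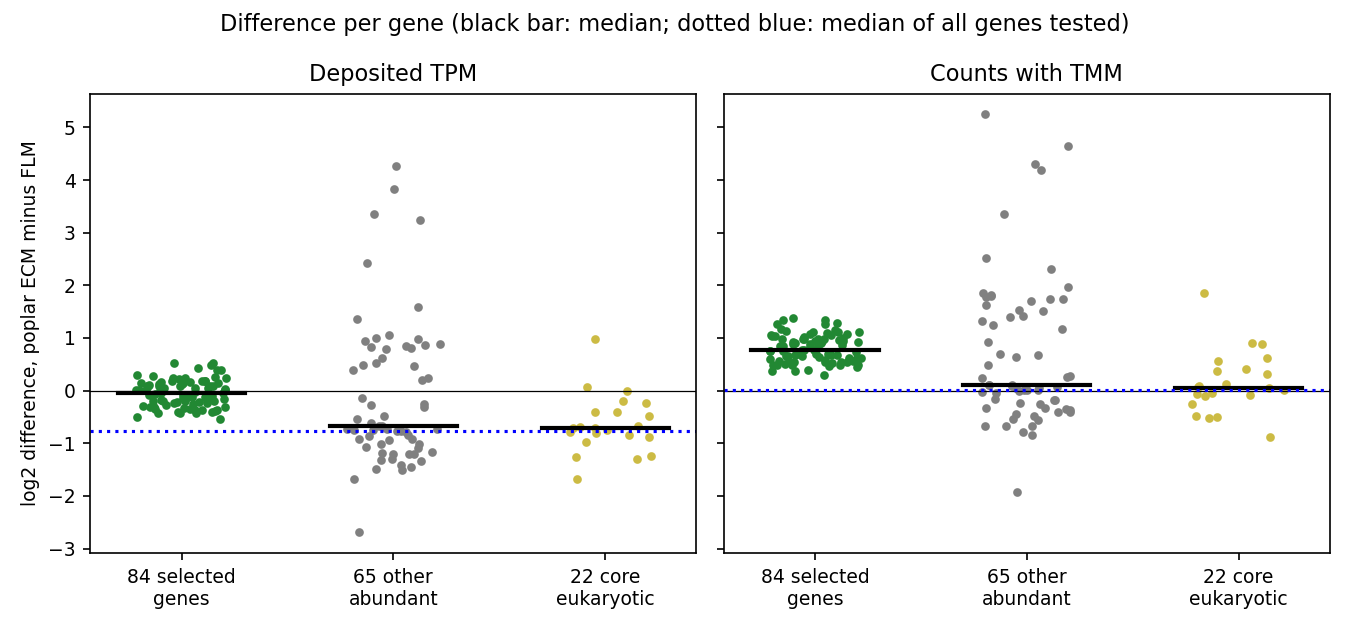
The log2 difference between poplar ECM and FLM (y axis) of each of the 84 TPM-selected genes, the 65 other abundant genes and the 22 core eukaryotic genes, from deposited TPM on the left and from counts with TMM on the right; black bars are medians of a set and the dotted blue line is the median of all genes tested. The 84 genes centre at -0.04 in TPM and at 0.78 with TMM, and the 22 core genes at -0.71 and 0.05.

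Scaled to the library totals in place of TMM, the 84 genes had a median log2 difference of 0.41, with 83 above 0 and 1 below, and the median of all genes was -0.33. TPM recomputed without Cenge3:599435 gave 0.22, and without the 5 genes of largest ratio 0.42. The median over the set was thus near 0 in deposited TPM and positive on each of these other scales. With library totals this came from poplar ECM replicates 1 and 2, whose medians against the FLM mean were 0.38 and 0.74, while that of replicate 3 was -0.01, with 40 genes above 0 and 44 below. No external standard was used here, so the data do not tell which scale is nearest to the amount of RNA per cell.

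The same selection was made on TPM multiplied by the TMM constants. It gave 61 genes, of which 16 were among the 84. These 16 were 26.2% of the new list and 19.0% of the TPM-selected genes. On deposited FPKM 32 of the 84 met the rule (38.1%). In TPM recomputed without Cenge3:599435, 75 of the 84 did (89.3%, and 65.2% of the 115 genes then selected), and without the 5 genes of largest ratio 59 did (70.2%, and 46.8% of 126). On the TMM scale 68 of the 84 genes had a ratio above 2, up to 4.06, and 11 fell below 400 in at least 1 library. The 3 genes of lowest ratio on the TMM scale were no members of the set and were named after their values were seen. The first of them, Cenge3:551597, had 840, 810 and 886 TPM in FLM and 410, 489 and 621 in poplar ECM, with a ratio of 2.16. On the TMM scale its values were 617, 619 and 674 in FLM and 699, 701 and 594 in poplar ECM, with a ratio of 1.18. Cenge3:140677 had ratios of 2.46 in TPM and 1.26 on the TMM scale, and Cenge3:684739 of 2.52 and 1.27.

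Selection in 5 libraries was next compared with the value in the library left out. A gene that meets the rule in all libraries also meets it in any 5. The 84 are thus kept each time by construction, and only the number of genes chosen can vary. All of the genes chosen without FLM replicate 1 or without FLM replicate 2, 84 each time, met the rule in the left-out library. Without FLM replicate 3, 84 of 90 did (93.3%), and without poplar ECM replicate 2, 84 of 92 (91.3%). The share was lower for the other poplar ECM libraries, at 84 of 101 (83.2%) without replicate 3 and 84 of 118 (71.2%) without replicate 1. Of the 34 genes lost in poplar ECM replicate 1, 25 were below 400 TPM there and 9 failed the ratio alone.

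Proportions among the 84 genes and ranks within a library do not depend on the scale. When each TPM was divided by the median of the 84 genes in its library, the ratio of highest to lowest ran from 1.14 to 2.21 with a median of 1.48, and it was at most 1.5 for 45 genes. The most constant proportion was that of Cenge3:709711, at 0.94, 0.94 and 0.91 of the median in FLM and 0.83, 0.91 and 0.83 in poplar ECM. The least constant was that of Cenge3:666327, at 1.03, 1.72 and 1.48 in FLM and 2.28, 1.91 and 1.70 in poplar ECM. Both were named after their values were seen.

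The order of the 84 genes was closest among the FLM libraries, with Spearman's rho across genes between 0.896 and 0.951. It was between 0.707 and 0.916 among the poplar ECM libraries and between 0.682 and 0.822 across the groups. Genes are not independent replicates, and all libraries share the genes' lengths and mapping. Among all genes of a library, the median rank of the 84 was 112, 116 and 128 in FLM (1 being the highest TPM) and 92, 88.5 and 111 in poplar ECM. By mean rank 62 of the 84 stood higher in poplar ECM and 22 lower, and of the 65 other abundant genes 25 stood higher and 40 lower. The rule kept genes that held their TPM where a typical gene had less in poplar ECM, and the 65 failed its ratio. Nothing is therefore read from these rank counts about the set. Only 24 of the 84 were among the 100 highest genes of every library, and 65 were among the 200 highest.

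The 84 genes were short. The length that the deposited values divide by equalled the whole gene in the RefSeq annotation, introns included, for 83 of the 84. Their gene length had a median of 698 bp, from 192 to 2345, against 981 bp for the other abundant genes with a match and 1503 bp for all genes tested. Genes shorter than 1000 bp made up 73.8% of the 84 and 26.7% of all genes tested, and 31 of the 62 other abundant genes with a match were as short. Dividing by length raises the TPM of a short gene at a given count. The other abundant genes passed the same limit in TPM, and the part of that limit in the length of the set was not tested.

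Over all genes tested, the median log2 difference on the TMM scale was 0.19 for the 3376 genes under 1000 bp, 0.07 for those from 1000 to under 2000 bp and -0.16 for longer ones. The 84 genes had medians of 0.85, 0.77 and 0.71 in the same classes, with 62, 20 and 2 genes. Those of the other abundant genes with a match were 1.32, -0.165 and -0.244, with 31, 26 and 5 genes. Under 1000 bp the other abundant genes thus had the higher median. By mean TPM over all libraries, the difference was 0.03 below 10 TPM, -0.07 from 10 to 50 and 0.03 from 50 to 100. It was 0.16 from 100 to 200 TPM, 0.28 from 200 to 400 and 0.58 for the 282 genes from 400 TPM up. These 282 include the 84, and their mean includes the poplar ECM values. Length, and level from 50 TPM up, thus moved with the difference, and their part in the values of the 84 genes was not tested.

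In the order of genes along the assembly, 3 pairs of the 84 were direct neighbours. Cenge3:539773 and Cenge3:692910 were 316 bp apart, Cenge3:661115 and Cenge3:678031 267 bp, and Cenge3:682314 and Cenge3:682315 1437 bp. Cenge3:539773 had 2469, 2205 and 2257 TPM in FLM and 2391, 3737 and 2304 in poplar ECM. Its neighbour Cenge3:692910 had 1392, 1264 and 1328 in FLM and 856, 1362 and 1432 in poplar ECM. Poplar ECM replicate 1 was thus the lowest library of the second gene and not of the first. The 158 flanking genes outside the set had a median of 26.9 TPM in their means, against 21.0 over all genes, and a median log2 difference of 0.09 on the TMM scale. The distance to the next gene had a median of 728 bp for the 84 genes and 877 bp for all genes tested. The annotated spans of 7 of the 84 overlapped that of a neighbour, and their counts may hold reads of it where both lie on the same strand.

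The 22 core eukaryotic genes that the study used to compare isolates were the only list of household functions that could be matched by ID. Their median log2 difference was -0.71 in TPM and 0.05 on the TMM scale, where 13 were above 0 and 9 below, and the medians of all genes tested were -0.76 and 0.01. Of the 22, 1 was up-regulated and 0 were down-regulated, against 9.94% and 3.28% of all genes tested. The 1 called was Cenge3:679843, a nucleoside diphosphate kinase, which supplies nucleoside triphosphates. It had 429, 444 and 467 TPM in FLM and 739, 1178 and 721 in poplar ECM, and the log2 difference on the TMM scale was 1.85 ± 0.30 (SE), with an adjusted p of 0.00149 in edgeR's quasi-likelihood test over all genes. It was the 1 core gene that reached 400 TPM in all libraries, and its ratio of 2.75 kept it out of the set. Nearest to the set among the others were Cenge3:612402, for the small nuclear ribonucleoprotein G of the splicing machinery, at 229, 230 and 234 TPM in FLM and 233, 292 and 163 in poplar ECM, and Cenge3:683606, for the RPB10 subunit of RNA polymerases, at 257, 226 and 237 in FLM and 154, 277 and 181 in poplar ECM. Both had a ratio under 2 and missed the level.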

How the data were processed

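Per the labels, the RNA-Seq libraries were of FLM and of poplar ECM, 3 each. Per the study's methods the reads were trimmed, mapped to reference transcripts of the fungus (genome version 2.0) and counted by strand; the submitters' processing notes name HISAT 0.1.4 and featureCounts. The deposited counts are raw whole numbers for each gene. The authors derived the FPKM from them, taking each library's summed counts as its size, and the deposited TPM add up to 1000000 per library. Both were found to divide by the gene's whole span for 83.7% of the genes with a RefSeq match.

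The 84 genes and the lists were chosen with earlier results of these data known. The rule was applied to the deposited TPM. Counts were fitted with edgeR 4.0.16 in R 4.3.3 (TMM, quasi-likelihood, 12692 genes at 10 counts or more in 3 libraries or more, Benjamini-Hochberg). The fit was also run on simulated counts with known changes. These were given no shift in composition and no sequencer effect, so the run does not bear on the choice of scale. The SE was derived from the F statistic, by dividing the log2 fold change by its square root. TMM-rescaled TPM are TPM times a constant per library, with a geometric mean of 1 over the libraries. Summaries and figures were made in Python 3.11.15 with pandas 2.3.3 and matplotlib 3.10.9. All replicate pairs differed by more than sampling noise. Genes were named by rules: the 5 of highest mean TPM, the 5 of lowest ratio, 3 on each side of a limit, the 3 highest and 3 lowest TMM differences, and the 3 abundant genes of largest ratio. Where another gene is named after its values were seen, the text says so; neighbouring pairs and core genes are named as such. Lists by product name and promoter motifs were not used here, since products were at hand for the 22 core genes only and sequences were not used here. RefSeq gave spans for 14684 of 14748 IDs, and scaffolds were split at each drop in position. Alternatives were other limits, scalings, filters, DESeq2 1.42.0, a replicate block, the sequencer as a term, and leaving out each library.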

Additional observations from a re-analysis of the deposited data

How the results depend on the processing

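The number of genes that met the rule was 84. It was 16 with a ratio of at most 1.5 and 52 on deposited FPKM, of which 32 were among the 84. It stayed within 1.5 times of 84 with a minimum of 300 or 500 TPM, on TMM-rescaled TPM and without single genes of large share, and lay between 84 and 118 with 1 library left out. On TMM-rescaled TPM the list was mostly other genes, with 16 of its 61 among the 84. The median log2 difference of the 84 genes, 0.78 with TMM, was -0.039 in deposited TPM, 0.41 with library totals and in deposited FPKM, 0.22 in TPM without Cenge3:599435 and 0.42 in TPM without the 5 genes of largest ratio. The change between scales is 1 constant per library, by construction. These alternatives of the median, those of the count past both limits, and TPM without single genes were chosen after seeing the data. The number of the 84 with a difference above 0.5 in size was 73 with TMM and 37 with library totals, and between 54 and 80 with 1 library left out. The number past both limits, 20 with TMM, was 1 with library totals, 4 with the sequencer as a term and between 3 and 39 with 1 library left out; DESeq2 gave 20. Fewer libraries enter the fits with 1 left out, and the cause of the other changes was not tested. The number of genes past both limits among all tested was 1678 and changed by less than 1.5 times in every setting run, but with library totals the split was 838 up and 1217 down, against 1262 up and 416 down.

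The replicate numbers were not used as pairs in the main fit. The deviations of same-numbered libraries from their group means correlated at 0.03, 0.19 and 0.23. Every poplar ECM library correlated best with its own number, and so did FLM replicates 2 and 3. FLM replicate 1 correlated at 0.08 with poplar ECM replicate 2 and at 0.03 with its own number. With 3 libraries per group, these values do not settle whether the libraries were paired. With the replicate number as a block, 1677 genes passed both limits, 13 of the 84 did, and the median log2 difference of the 84 was 0.75.

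Counts of the 84 genes ran from 1230 to 140389 per library, so counting error is small beside the spread between replicates. With 3 libraries per group, and poplar ECM replicate 3 apart from the other 2, the size of the difference rests on few samples. The sequencers are not balanced over the groups.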
